A study of Homo sapiens with 2 samples.

Results

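PTK2 encodes focal adhesion kinase (FAK), and this account covers the mRNAs of PTK2 and of 9 genes set beside it: PTK7, PXN, BCAR1, SRC, ILK, PARVA, ZYX, CRK and LIMS1. They were taken as the rows of the deposited expression table whose gene symbol equals one of these 10 names. All 10 were found among 13075 genes, with 1 row each. PTK2 mRNA has been reported as a target of TOP3B and of FMRP, which is why it leads the list.

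The RNA came from HEK293 cells, a human embryonic kidney line, at passage 15, transfected with FLAG-tagged TOP3B that carries the R338W substitution. TOP3B is a topoisomerase of both DNA and RNA, and its known partners are TDRD3 and FMRP. The RIP (RNA immunoprecipitation) library held RNA pulled down with a monoclonal antibody against FLAG, and the input library was made without an antibody, so both carry the same transfected protein. Each group was 1 library, so every difference below lies between 2 libraries, has no replicate check and carries no p-value. No RIP of untagged cells was analysed here. The lysate is bulk material, so in the level of an mRNA, fewer cells holding it and less of it per cell cannot be told apart. A difference between the libraries sets pulled-down RNA beside input RNA, and does not compare 2 groups of cells.

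Focal adhesions are the sites where integrin receptors tie the extracellular matrix to actin filaments. FAK is recruited to clustered integrins, phosphorylates itself and docks the kinase SRC, and the pair phosphorylates the scaffolds paxillin (PXN) and p130Cas (BCAR1), to which the adaptor CRK then binds. A second assembly, made of the pseudokinase ILK, the LIM protein PINCH (LIMS1) and parvin (PARVA), links integrin tails to actin, and zyxin (ZYX) joins mature adhesions under tension. PTK7 shares part of its symbol with PTK2 but is a receptor-like pseudokinase of planar cell polarity and Wnt signalling.

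Values are FPKM, that is fragments corrected for transcript length and library total, which allows levels to be compared between genes. The estimated depth was 24800000 fragments for the RIP library and 15300000 for the input. TOP3B itself, the bait, stood at 30666 FPKM in the RIP against 15062 in the input. As a check of the labelled cell type, VIM stood at 678.56 and 544.29 FPKM and NEFL at 41.45 and 27.31, of 5 genes with values among 6 filament and renal developmental genes known from HEK293. Of 8 kidney tubule markers 1 had values, LRP2, and the 6 blood cell and 4 liver markers gave none.

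The ratio used below is log2((RIP + 1)/(input + 1)), with 1 FPKM added to each value, which makes differences of low genes look smaller. A gene was compared when either library reached 5 FPKM, which kept 11990 genes and all 10 members. No member was 2-fold apart: 0 of 10 reached 2-fold higher in the RIP, beside 4.9% of all genes compared, and 0 of 10 at least 2-fold lower, beside 2.5%. At 1.5-fold, 2 members (SRC and ILK) were higher, beside 19.9% of all genes, and 0 were lower, beside 10.2%. Ratios were above 0 for 7 members, beside 58.7% of all genes. Among coding genes alone, a setting added after seeing the data, 3.65% were at least 2-fold higher and 0.533% lower. The members' shares are close to those of genes in general. The median ratio of the members was 0.33, beside 0.13 over all genes. It was 0.20, beside 0.00, once the median gene was set to 0, and 0.13, beside -0.07, after both libraries were rescaled to their coding genes. In all, 6 members lay above the median gene and 4 below. Of all genes past the 2-fold limit 66.2% were higher in the RIP, but 44.8% with the median gene at 0, 34.4% after the rescaling and 87.3% among coding genes alone. The shift of the median gene was -0.13 log2 with centring and -0.2 with rescaling. Each scaling moves the genes down about alike, and so can turn small positive ratios negative.

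**Figure D1:**
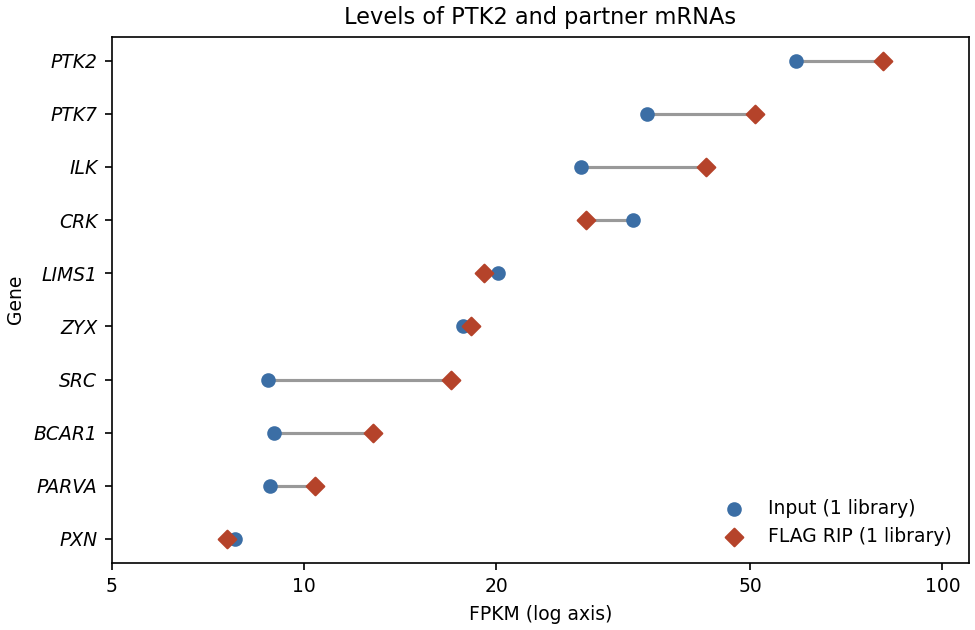
FPKM of the 10 members in the input (circles) and the RIP (diamonds) on a log axis, 1 library each, ordered by level in the RIP. PTK2 had the highest level in both libraries and PXN the lowest. SRC shows the widest gap on the log axis, from 8.78 to 16.97 FPKM, whereas PTK2 had the largest difference in FPKM, 21.91.

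PTK2 was the most abundant member. It stood at 80.87 FPKM in the RIP against 58.96 in the input, 3.87 and 3.13 times the median coding gene. The RIP was higher by 37.2%, a log2 ratio of 0.45, and 72.1% of all genes compared had a lower ratio. The gene (ENSG00000169398.19, GRCh38 chromosome 8, 140657900 to 141002216, minus strand) spans 344317 bases and has 57 annotated transcripts. Its value rested on about 816 fragments in the RIP if its typical transcript has the median annotated length of 576 bases, or 9599 if it is the full-length coding transcript of 4955 bases. The counting error of the ratio was accordingly 0.09 or 0.03 log2, which covers sampling of fragments only. Counting errors below are by median annotated length, the wider choice, unless full length is named.

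SRC had the highest ratio of the 10 members. It encodes the tyrosine kinase that binds FAK (ENSG00000197122.11, chromosome 20, 37344685 to 37406050, plus strand). It stood at 16.97 FPKM in the RIP against 8.78 in the input, a log2 ratio of 0.88, or 0.95 with no pseudocount. The RIP value was thus 1.93 times the input, just inside the 2-fold limit, and 92.2% of genes had a lower ratio. By median annotated length it rested on about 175 and 56 fragments, the fewest input fragments of any member, with a counting error of 0.22, or 0.07 by full length.

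The scaffold and the adaptor downstream of the kinases went different ways. BCAR1, the p130Cas scaffold (ENSG00000050820.16, chromosome 16, 75228187 to 75268053), stood at 12.83 FPKM in the RIP against 8.97 in the input, a log2 ratio of 0.47 with a counting error of 0.11. CRK, the adaptor that reads phosphorylated p130Cas and paxillin (ENSG00000167193.7, chromosome 17, 1420689 to 1463162), stood at 27.66 and 32.77 FPKM, a log2 ratio of -0.24 with a counting error of 0.06. CRK was the lowest member, and 25.6% of genes had a lower ratio. In the input the SRC level was 0.268 times that of CRK, and in the RIP 0.614 times. SRC and CRK are the highest and the lowest member, so the difference between their ratios, 1.11 log2, is the full range of the members. Its counting error of 0.23 covers sampling of fragments only and does not allow for choosing the pair by its ratios.

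The LIM-domain adaptors were nearly level between the libraries. PXN, the scaffold that binds FAK (ENSG00000089159.15, chromosome 12, 120210439 to 120265771), stood at 7.57 FPKM in the RIP against 7.79 in the input, a log2 ratio of -0.04 with a counting error of 0.21. ZYX (ENSG00000159840.15, chromosome 7, 143381080 to 143391111) stood at 18.28 and 17.77 FPKM, a ratio of 0.04 with an error of 0.14. Both ratios are smaller than their counting errors, and that of ZYX was -0.16 after rescaling to coding genes. The level of PTK2 relative to PXN was 7.57 in the input and 10.7 in the RIP.

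The 3 mRNAs of the ILK complex did not share one ratio. ILK (ENSG00000166333.13, chromosome 11, 6603708 to 6610874) stood at 42.57 FPKM in the RIP against 27.2 in the input, a log2 ratio of 0.63 with a counting error of 0.08. LIMS1 (ENSG00000169756.16, chromosome 2, 108534355 to 108687246) stood at 19.16 and 20.13 FPKM, a ratio of -0.07 with an error of 0.13. PARVA (ENSG00000197702.11, chromosome 11, 12377185 to 12535356) stood at 10.4 and 8.84 FPKM, a ratio of 0.21 with an error of 0.15, or 0.05 by full length. ILK mRNA was 1.35 times LIMS1 mRNA in the input and 2.22 times in the RIP, a difference of 0.70 log2 with a counting error of 0.16. LIMS1 has near-identical relatives elsewhere in the genome, so its value is uncertain where fragments fit more than one copy.

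PTK7, the pseudokinase of polarity signalling, resembled PTK2 in ratio. It stood at 50.81 FPKM in the RIP against 34.46 in the input (ENSG00000112655.15, chromosome 6, 43076268 to 43161719), a log2 ratio of 0.55 with a counting error of 0.05. The ratios of PTK2 and PTK7 differed by -0.10 log2, PTK2 being lower, with a counting error of 0.10 by median annotated length. By full length the errors of the separate ratios were smaller, 0.03 for PTK2 and 0.04 for PTK7.

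In order of ratio the members ran SRC, ILK, PTK7, BCAR1, PTK2, PARVA, ZYX, PXN, LIMS1 and CRK. By median annotated length, 0 of the 9 neighbouring pairs in this order differed by more than the 95% counting interval of the difference. By full length 3 pairs did, SRC above ILK, PTK2 above PARVA and PARVA above ZYX. Some members share exonic sequence with overlapping genes. Exons of ILK overlap those of TAF10 on the other strand, which stood at 41.39 FPKM in the RIP against 57.31 in the input (ratio -0.46). Exons of PXN overlap those of PXN-AS1, at 5.31 and 6.82 FPKM (ratio -0.31). BCAR1 and ZYX also have exons that overlap annotated genes with no values here. Of these AC009078.3 lies on the same strand as BCAR1, so strand does not separate it. The library kit keeps the strand, but whether counting used it is not given in the sources used here, and the part of these overlaps in the values was not tested.

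**Figure D2:**
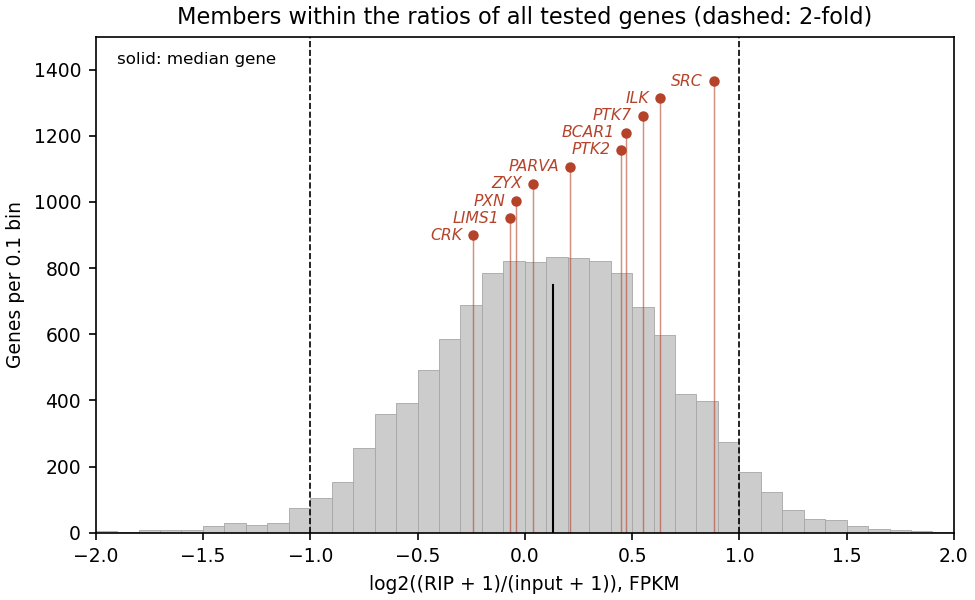
Number of genes per 0.1 bin of log2((RIP + 1)/(input + 1)) over the 11990 genes compared, between -2 and 2, with the members marked by lines whose heights only separate the names. The dashed lines mark 2-fold, and every member lies between them, from CRK at -0.24 to SRC at 0.88.

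The coding length of a gene went with its ratio across the table, and PTK2, PTK7 and BCAR1 lay near the genes of their own length. Coding length is that of 1 representative transcript per gene in GENCODE 29. Over 10513 coding genes the median ratio by quintile of coding length ran from -0.25 through 0.00, 0.15 and 0.30 to 0.52. PTK2 (3156 coding bases), PTK7 (3210) and BCAR1 (2610) belong to the top quintile, and lay 0.07 below, 0.03 above and 0.04 below its median in log2. Within that quintile 43.1% of genes had a lower ratio than PTK2. PTK2 thus lay 0.32 above the median gene of the whole table, but slightly below the median of genes with long coding sequences.

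SRC and ILK lay above genes of their length, and PXN, ZYX and CRK below. SRC (1608 coding bases) lay 0.73 log2 above the median of the third quintile, where 95.3% of genes had a lower ratio. ILK (1356) lay 0.48 above it, with 87.2% lower, and PARVA (1236) 0.07 above it. In the fourth quintile PXN (1773) lay 0.33 below the median and ZYX (1716) 0.26 below. In the second quintile CRK (912) lay 0.24 below and LIMS1 (1161) 0.07 below. In all, 4 of 10 members lay above the median of their quintile, and the median of these differences was -0.06. A scaling that shifts all ratios alike leaves these differences in place.

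**Figure D3:**
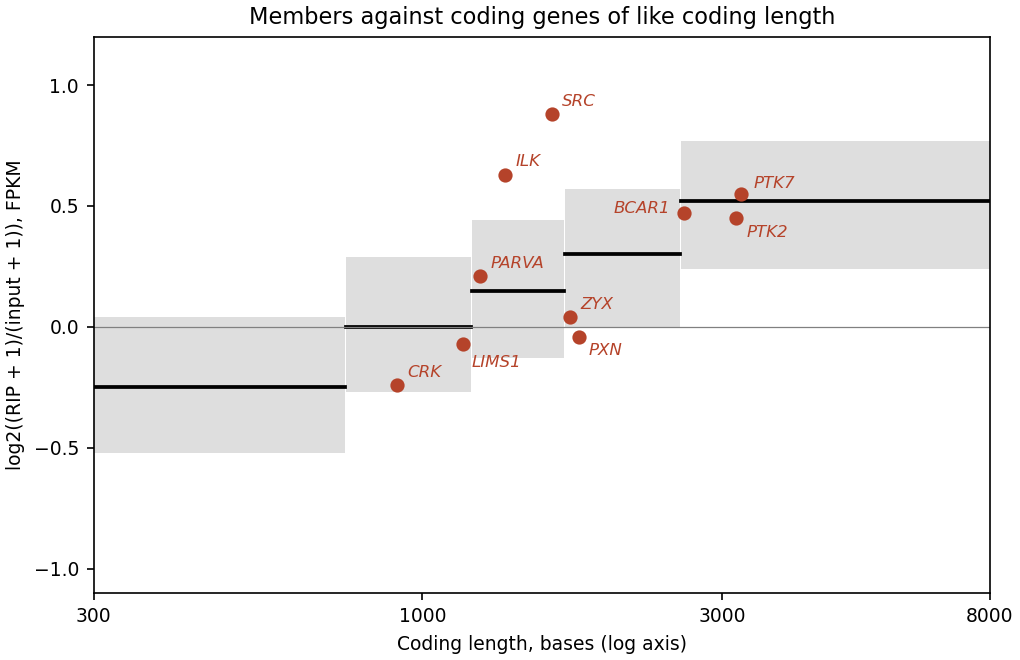
Ratio of each member (points) against the coding length of its representative transcript on a log axis, with the ends of the length range cut off. Black bars are the medians and grey boxes the interquartile ranges of all coding genes in each quintile of coding length. PTK2, PTK7 and BCAR1 sit beside the bar of the longest quintile at 0.52, and SRC and ILK lie above their grey box.

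The number of exons followed the ratio as closely, whereas the 3′ UTR did not. Across the 10513 coding genes Spearman's correlation with the ratio was 0.51 for coding length, 0.57 for exon number, 0.25 for GC content, 0.24 for transcript length and -0.07 for 3′ UTR length. These are descriptions across genes that share the same 2 libraries. Over the 10 members the correlation was 0.57 for exon number and 0.47 for coding length. PTK2 has 32 exons, and lay 0.12 below the median of the 34 other genes with that number. CRK has 3, and lay 0.02 above the median of -0.26 of 540 such genes. BCAR1 differs between both measures: its 7 exons place it 0.51 above the median of 655 genes with that number, although its long coding sequence places it at the median. SRC, with 14 exons, lay 0.53 above the median of genes with that number, and ILK, with 12, lay 0.40 above.

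Short motifs linked to FMRP binding were not denser in the members with the highest ratios. The motif ACTT with its variant ACTG, and the motif TGGA with its variant AGGA, were searched on the sense strand only, with T standing for U, and overlapping matches were each counted. PTK2 held 92 matches in its coding sequence, 29.2 per kilobase, and 78.2% of coding genes had a lower density. PARVA had the highest density of the members, 31.6 per kilobase, and SRC, the member with the highest ratio, the lowest, 19.3 per kilobase, with 14.4% of genes lower. Spearman's correlation between density and ratio was -0.43 over the 10 members and 0.11 over all coding genes. The stretches below are the 120 coding bases within 1 exon that hold the most matches, for the 2 members highest above genes of their length (SRC and ILK) and the member with the lowest ratio (CRK). Capitals mark the matches, and the sequences are GENCODE 29 transcripts on GRCh38, written 5′ to 3′ along the mRNA.
SRC: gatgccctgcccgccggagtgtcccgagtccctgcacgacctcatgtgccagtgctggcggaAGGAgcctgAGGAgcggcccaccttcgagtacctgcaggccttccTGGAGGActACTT
ILK: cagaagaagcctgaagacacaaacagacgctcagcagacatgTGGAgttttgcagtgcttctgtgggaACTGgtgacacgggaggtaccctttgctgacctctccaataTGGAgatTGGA
CRK: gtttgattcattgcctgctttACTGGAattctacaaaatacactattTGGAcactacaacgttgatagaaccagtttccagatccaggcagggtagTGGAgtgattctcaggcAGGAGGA
The SRC stretch (chr20:37403217-37403336, plus strand, exon 14) holds 5 matches, and 79.7% of 10221 coding genes have a stretch with at least as many. The ILK stretch (chr11:6610153-6610272, plus strand, exon 11) holds 4, with 90.7% of genes at or above it. The CRK stretch (chr17:1436999-1437118, minus strand, exon 2) holds 6, the median of all genes, with 62.6% at or above it. These 3 genes were chosen by their ratios, and none of the stretches holds more than the median of 6 matches. Their order therefore cannot show a link between matches and ratio. A match is a run of letters and not a shown binding site.

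Relatives of the members gave wide differences within families. Of 20 relatives 13 passed the floor, and 0 were 2-fold apart in either direction, beside 4.9% higher and 2.5% lower of all genes. Their median was 0.15, and -0.04 after rescaling to coding genes. Among SRC family kinases, FYN stood at 94.67 FPKM in the RIP against 54.55 in the input (ratio 0.78), near SRC. YES1 stood at 24.0 and 36.22 FPKM, a ratio of -0.57, and LYN at 11.82 and 11.57 FPKM. The ratios of SRC and YES1 differed by 1.45 log2 with a counting error of 0.23, and those of FYN and YES1 by 1.36 with an error of 0.08. CRKL, the relative of CRK, stood at 30.31 and 29.35 FPKM, and CRK lay 0.28 log2 lower with an error of 0.07. PARVB (24.53 and 15.38 FPKM) had a ratio of 0.64, above PARVA. The zyxin relatives TRIP6 (36.48 and 27.05 FPKM) and LPP (27.01 and 20.3 FPKM) had 0.42 and 0.40, whereas AJUBA stood at 6.67 and 6.68 FPKM, LIMD1 had 0.17 and WTIP -0.13. The p130Cas relative NEDD9 (15.24 and 13.62 FPKM) had 0.15, and the paxillin relative TGFB1I1 (6.02 and 5.16 FPKM) had 0.19.

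Among the linkers from integrins to actin, TLN1 and ACTN4 were past 2-fold. Of 23 activators and linkers 18 passed the floor, with 2 at least 2-fold higher, 0 lower, and a median of 0.40. Over all genes compared 4.9% were at least 2-fold higher and 2.5% lower. Of the 18 linkers, 9 lay above the median of their length quintile, and the median of these differences was 0.03. ACTN4, an actin crosslinker, stood at 117.17 FPKM in the RIP against 52.11 in the input (ratio 1.15). TLN1, talin, which binds integrin tails and activates them, stood at 53.21 and 24.35 FPKM (ratio 1.10). The lowest was CSRP1, a LIM protein, at 18.73 and 24.47 FPKM (ratio -0.37). After rescaling to coding genes 0 of the genes in the pathway lists were 2-fold higher, beside 2.37% of all genes. Of 21 integrin subunits 12 passed the floor, with 0 at least 2-fold higher and 1 lower, and a median of 0.34. That median was 0.15 after rescaling and -0.01 with a floor of 20 FPKM. The lower subunit was ITGAE, at 19.53 and 40.5 FPKM (ratio -1.02), and the highest was ITGB5, at 9.82 and 6.07 FPKM (ratio 0.61). Integrin subunits have long coding sequences (median 3150 bases), and 1 of 12 lay above the median of its length quintile.

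Downstream adaptors and regulators were spread on both sides of the median gene. Of 34 adaptors, GTPase regulators and kinases 30 passed the floor, with 1 at least 2-fold higher, 0 lower, and a median of 0.23. Among all genes compared the shares were 4.9% higher and 2.5% lower. DOCK5, an exchange factor for RAC, stood at 13.47 FPKM in the RIP against 6.11 in the input (ratio 1.03), and the GTPase RHOA at 61.87 and 100.22 FPKM (ratio -0.69). Of 14 negative regulators and phosphatases 12 passed, with 1 higher, 0 lower, and a median of 0.07 that turned to -0.05 after centring and -0.13 after rescaling. CBLB, a ubiquitin ligase, stood at 13.8 and 5.64 FPKM (ratio 1.16) and CAV1, caveolin, at 14.32 and 18.97 FPKM (ratio -0.38). CSK, the kinase that holds SRC inactive, stood at 33.76 and 23.83 FPKM (ratio 0.49).

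The polarity and Wnt partners of PTK7 had ratios on both sides of that of PTK7. Of 26 listed genes 17 passed the floor, and 0 were 2-fold apart in either direction, beside 4.9% higher and 2.5% lower of all genes. The median was 0.39. LRP6, a Wnt co-receptor, stood at 32.73 FPKM in the RIP against 16.6 in the input (ratio 0.94), and ROR2, a Wnt receptor kinase, at 3.19 and 5.15 FPKM (ratio -0.55). MMP14, a membrane protease that cleaves PTK7, stood at 5.05 and 2.61 FPKM (ratio 0.74). MMP14 reached the floor of 5 FPKM through its RIP value alone, and ROR2 through its input value alone. By median annotated length, MMP14 had an estimated 51 (RIP) and 16 (input) fragments, and ROR2 had 33 and 33. Both ratios thus rest on few fragments, and their counting errors are not given here. Of these 17 genes 9 lay above the median of their length quintile.

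**Figure D4:**
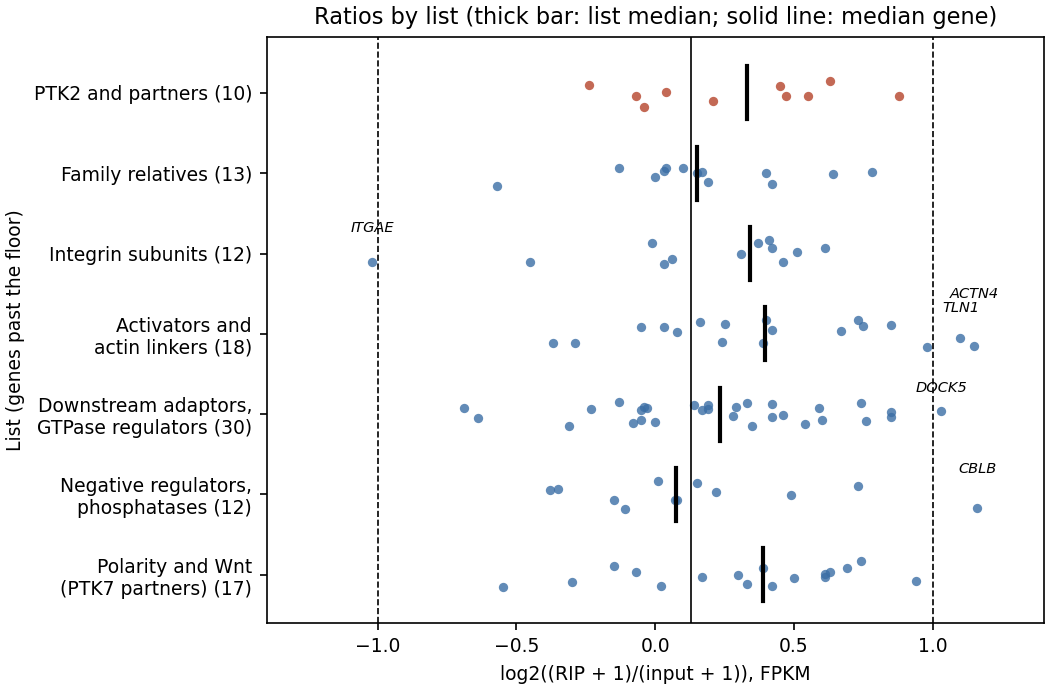
Ratio of each gene past the floor, by list, with vertical scatter only to separate points. Thick bars are list medians, the thin solid line is the median gene at 0.13, and genes beyond the dashed 2-fold lines are named. The linkers hold TLN1 and ACTN4 beyond 2-fold, while no member of the PTK2 list reaches it. Over all genes compared 4.9% are at least 2-fold higher and 2.5% lower.

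Over all 112 genes of these lists past the floor, members included, the median ratio by quintile of coding length ran from -0.38 in the shortest (6 genes) through 0.06, 0.19 and 0.24 to 0.42 in the longest (38 genes). Those of all coding genes ran from -0.25 through 0.00, 0.15 and 0.30 to 0.52, so the listed genes lay lower in the shortest and the 2 longest quintiles and higher in the other two. The gene nearest to each member in its pair of log2 levels was sought among the other 111. With 2 libraries this measures only likeness of 2 levels. FYN was nearest to PTK2 at a distance of 0.25, VCL to PTK7 at 0.12 and NCK2 to SRC at 0.16. GIT2 was nearest to ILK at 0.07 and PPM1F to PARVA at 0.01.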

How the data were processed

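The authors deposited 1 table of FPKM values for 13075 genes in 1 RIP and 1 input library of HEK293 cells. The table does not name its unit. FPKM was inferred because the values carry decimals and sum to 1090243 and 1512049. Per the submitters' processing notes, cutadapt 1.18, Trimmomatic 0.3, STAR 2.6.1, RSEM 1.2.31 and hg38 were used. The sources used here give neither an annotation release nor a cutoff on low values. Columns were assigned by the sample titles, and 0 columns were left unassigned.

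Depth was estimated from short genes with 1 transcript, as the depth and mean fragment length (170 bases in the RIP, 168 in the input) that gave whole fragments most often. Within 0.15 of a whole fragment lay 70.8% of 72 RIP genes and 68.3% of 189 input genes, so depths are estimates. The search was also run on simulated whole fragment counts, which cannot show how well it does on the deposited values. Fragment numbers and counting errors follow from the estimated depths, and the errors cover sampling only.

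Genes were matched to GENCODE 29 (GRCh38) by Ensembl identifier without its version (12983, 99.3%), and coordinates are from that release. The representative transcript was the coding one of the basic set ranked first by APPRIS, then by coding length. Named genes are all members and, per list, genes past 2-fold and the highest and lowest ratio, with relatives set beside their member, and the listed gene nearest to each member in level. CSK, MMP14 and VIM, NEFL and LRP2 were named outside that rule, after their values were seen. The members and lists were chosen with earlier results of these data known. Coding length, exon number and their comparisons were explored after the values had been seen. Tools were Python 3.11.15, numpy 2.4.6, scipy 1.17.1, pandas 2.3.3 and matplotlib 3.10.9.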

Additional observations from a re-analysis of the deposited data

How the results depend on the processing

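No paired analysis was possible because neither group holds a replicate. Size factors of DESeq2 need counts, so that scaling was not run. Of 75 member ratios under other settings 66 stayed within the counting interval by median annotated length, and 9 moved, all through scaling. Changing the floor or keeping coding genes alone cannot change a member's ratio, so that part of the 66 was fixed in advance. By the narrower full-length interval 24 moved, 23 through scaling and 1 with pseudocount 5 (SRC, 0.67), while 7 under scaling stayed. Rescaling to coding genes gave 0.24 for PTK2, 0.34 for PTK7, 0.43 for ILK and -0.44 for CRK. ZYX alone changed sign, to -0.16, and SRC ranged from 0.67 to 0.94. A floor of 20 FPKM kept 5 members.

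At 1.5-fold 2 of 10 members were higher, beside 19.9% of all genes. For the genes of the 6 pathway lists, 4 higher and 1 lower at 2-fold became 25 and 3 at 1.5-fold and 0 and 0 at 4-fold. Over all genes 4.9% were higher and 2.5% lower at 2-fold, 19.9% and 10.2% at 1.5-fold, and 0.659% and 0.701% at 4-fold. The higher count was 6 with pseudocount 0.1, 2 after centring, 2 with a floor of 20 FPKM, 1 with pseudocount 5 (0 lower), 0 after rescaling and 1 after rescaling without TOP3B. In the same order, the shares of all genes higher were 6.21%, 3.04%, 5.6%, 2.5% (1.5% lower), 2.37% and 2.7%. The median of the relatives was -0.04 after rescaling and -0.01 without TOP3B, and that of negative regulators -0.13 and -0.09.

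Over all genes, 588 higher and 300 lower became 2386 and 1222 at 1.5-fold, 79 and 84 at 4-fold, 300 and 180 with pseudocount 5, and 352 and 157 with a floor of 20 FPKM. Centring gave 365 higher and 450 lower, rescaling 284 and 542, rescaling without TOP3B 324 and 493, and coding genes alone 384 and 56. The median gene, 0.13, had 0.10 with pseudocount 5, 0.21 with the floor of 20, 0.00 centred, 0.15 among coding genes, -0.07 rescaled and -0.03 rescaled without TOP3B. The last scaling and the coding genes were added after seeing the data. The cause of these shifts was not tested. By median annotated length depth limits SRC and PXN most, and by full length PXN, with a counting error of 0.09.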
